A study of Mus musculus with 20 samples.

Results

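The CC chemokines described here are 10 mouse genes, Ccl2, Ccl3, Ccl4, Ccl5, Ccl6, Ccl7, Ccl8, Ccl9, Ccl17 and Ccl22, out of 15465 named genes with values in the breast cancer (BC) libraries. They were taken by symbol, each from the 1 row of the deposited table that carries it. Bulk tumour tissue from 20 libraries in 5 groups of 4 was sequenced, from orthotopic models of pancreatic ductal adenocarcinoma (PDAC) and BC. The values described are those of the 8 BC libraries: 4 primary tumours and 4 lung metastases, all derived from 4T1, a mouse mammary carcinoma line, and all collected at 28 days. The labels call primary tumours and metastases matched, and shared title numbers tie 1 primary tumour to 1 lung metastasis in each of mice 1 to 4. Host strain, age and treatment are not stated in the labels beyond this. All 8 libraries come from a single line and from undissected tissue, so each holds RNA of carcinoma cells and of the host cells around them. The 12 PDAC libraries were not used, because the values in their columns do not follow the gene symbols of the table.

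Chemokines are small secreted proteins that bind G protein-coupled receptors on leukocytes and direct their migration along a gradient. In the CC family the first pair of conserved cysteines stands side by side, and the ligands share receptors: Ccl2 and Ccl7 bind CCR2 on monocytes, Ccl3, Ccl5, Ccl6 and Ccl9 bind CCR1, and Ccl17 and Ccl22 bind CCR4 on T cells. In tumours, macrophages, monocytes, dendritic cells, fibroblasts and carcinoma cells can all secrete them.

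The adjacent cysteines that define the family can be read in the coding sequence, shown for 9 of the 10 genes. The windows below are 30 bases of coding sequence from GENCODE M21, 5′ to 3′, with the codons of the adjacent cysteines in capitals, and are shown because they are the feature by which the genes belong together.
Ccl2: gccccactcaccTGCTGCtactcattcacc
Ccl7: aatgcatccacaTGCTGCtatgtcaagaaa
Ccl8: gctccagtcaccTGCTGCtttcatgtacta
Ccl4: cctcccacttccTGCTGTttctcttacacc
Ccl5: gacaccactcccTGCTGCtttgcctacctc
Ccl6: acttcttcagacTGCTGCttctcttatgcc
Ccl9: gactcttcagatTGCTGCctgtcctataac
Ccl17: gtaggccgagagTGCTGCctggattacttc
Ccl22: gaagacagtatcTGCTGCcaggactacatc
Each of the 9 held exactly 1 such pair of neighbouring codons, written TGCTGT in Ccl4 and TGCTGC in the others. On GRCm38 (not the build of the expression values, mm9) the codons of Ccl2 lie at chr11:82036506-82036511, those of Ccl7 at chr11:82046538-82046543 and those of Ccl8 at chr11:82116056-82116061, all on the plus strand. The Ccl4 codons lie at chr11:83663482-83663487 on the plus strand and the Ccl5 codons at chr11:83529242-83529247 on the minus strand. The Ccl6 codons lie at chr11:83589386-83589391 and the Ccl9 codons at chr11:83575926-83575931, both on the minus strand. The remaining pair sits on another chromosome, Ccl17 at chr8:94811212-94811217 and Ccl22 at chr8:94746934-94746939, both on the plus strand. The codons are in exon 2 of 3 in 7 genes and in exon 3 of 4 in Ccl6 and Ccl9. Over the 36 pairs of these genes, coding sequence identity ran from 60.5% to 72.1% with a median of 64.8%, and the highest values were those of Ccl2 with Ccl7 (72.1%), Ccl17 (71%) and Ccl8 (70.9%), followed by Ccl6 with Ccl9 (70.7%). The longest stretch that Ccl6 and Ccl9 share without a difference was 23 bases. How reads that match more than 1 gene were counted is not given in the sources used here.

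None of the 10 CC chemokines passed the test between lung metastases and primary tumours, and in none did the 4 metastases and the 4 primary tumours separate. The comparison asks which transcripts differ between the primary tumour and the lung metastasis of the 4T1 model. Values are normalised read counts, reads of a gene scaled to a library level near 1000000, and differences are limma estimates on log2(value + 1), a scale that understates the change of low genes. All 10 genes passed the filter, which asked for a value of 1 or more in 4 or more of the 8 libraries. The share called at a Benjamini-Hochberg adjusted p under 0.05 was 0 of 10, against 1279 of 14003 genes tested (9.13%), and 7.18% of all genes were called higher and 1.96% lower in the metastases. At an unadjusted p under 0.05 there was 1 of the 10, Ccl5, against 23% of all genes. edgeR on reads recovered from the values called 0 of 10, and DESeq2 called 1, Ccl5. The groups were free of overlap in 0 of 10 CC chemokines and in 17.9% of all genes. The estimates were positive for Ccl3, Ccl5 and Ccl17 and negative for the other 7, with a median of -0.27 on the log2 scale against -0.06 over all genes.

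**Figure D1:**
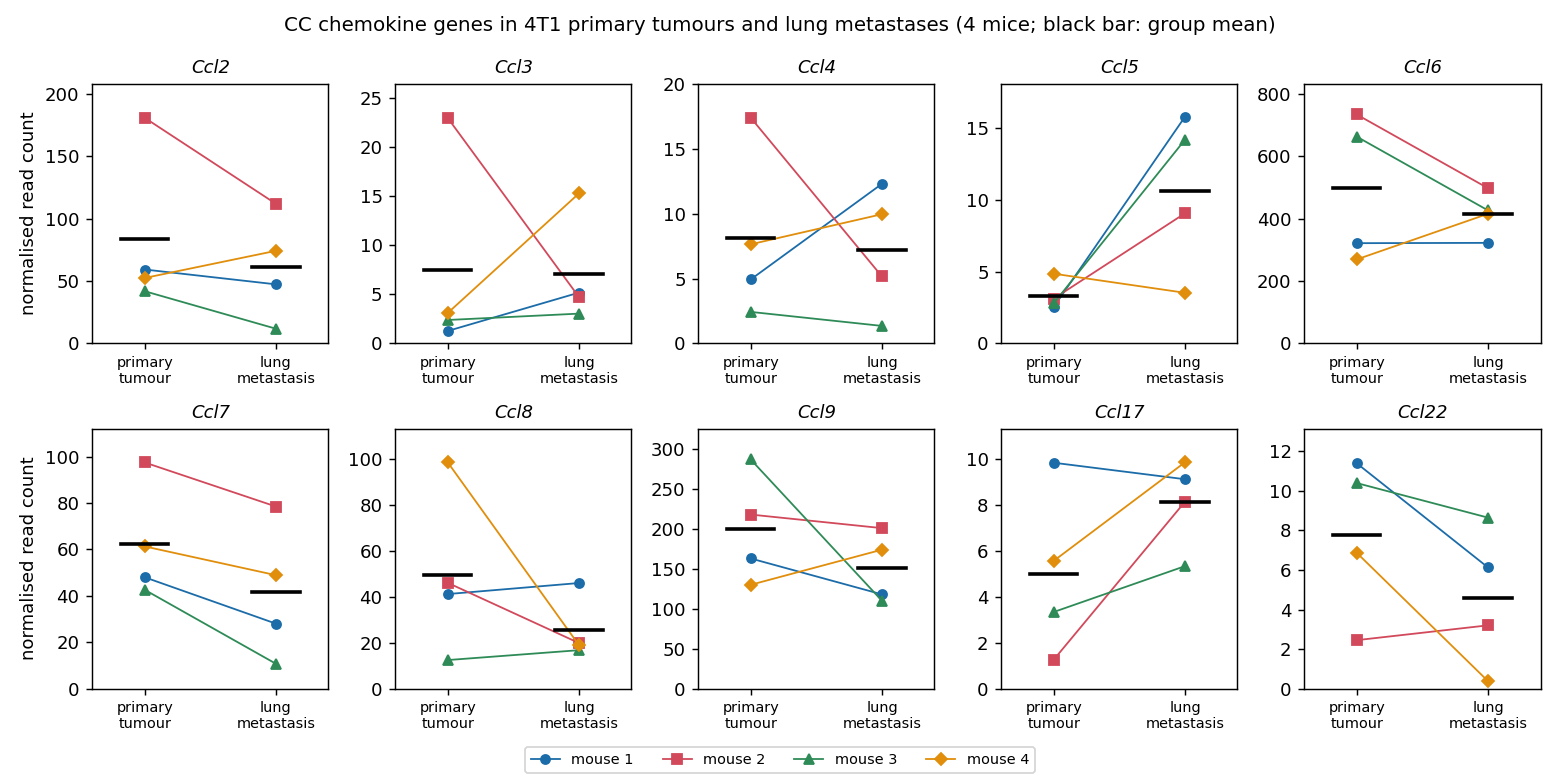
Normalised read count of each CC chemokine on a linear axis from 0, with 1 point for each of the 4 primary tumours and 4 lung metastases, a line joining the libraries of 1 mouse and a black bar at each group mean. In all 10 panels the 2 groups overlap, and for Ccl7 alone the line falls in all 4 mice.

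Ccl2 and Ccl7, which attract monocytes through CCR2, had lower values in most metastases than in the primary tumours of the same mice, within the spread of the group. Ccl2, the chief monocyte attractant, measured 59.3, 181, 41.9 and 52.5 in primary tumours 1 to 4 and 47.4, 112, 11.8 and 74.3 in the lung metastases of the same mice. Mouse 2 was highest in both tissues, metastasis 3 was lowest, and the groups overlapped. The means were 61.4 ± 42.3 in metastases and 83.7 ± 65.3 in primary tumours (SD, n = 4 each), a log2 difference of -0.56 with a standard error of 0.639 and a 95% interval of -1.98 to 0.85 (limma adjusted p = 0.636). The metastasis was the higher library in 1 of 4 mice, and without lung metastasis 3 the difference was 0.07, of the opposite sign.

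Ccl7, a second CCR2 ligand encoded next to Ccl2, measured 48, 97.5, 42.6 and 61.3 in primary tumours 1 to 4 and 28, 78.5, 10.7 and 48.9 in the metastases. Mouse 2 was again highest in both tissues and metastasis 3 lowest. Its metastasis lay below the primary tumour in 4 of 4 mice, by 0.76, 0.31, 1.89 and 0.32 on the log2 scale, whereas 32% of all genes tested had 1 sign in all 4 mice. The mean was 41.6 ± 29.2 in metastases and 62.4 ± 24.7 in primary tumours (SD, n = 4 each), and the log2 difference of -0.82 had an interval of -1.95 to 0.31 (limma adjusted p = 0.372).

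Ccl8, a ligand of CCR8 in the mouse that lies near Ccl2 and Ccl7, measured 41.1, 46, 12.4 and 98.4 in primary tumours 1 to 4 and 45.9, 19.8, 16.7 and 18.9 in the metastases. Here primary tumour 4 was highest and primary tumour 3 lowest, so both extremes were primary tumours. Metastases differed from primary tumours by -0.73 on the log2 scale, with an interval of -1.93 to 0.46 (limma adjusted p = 0.45), and the metastasis was higher in 2 of 4 mice.

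Among Ccl3, Ccl4 and Ccl5, inflammatory chemokines of T cells and macrophages, Ccl5 had the only estimate of the 10 with a 95% interval that left out 0, while Ccl3 and Ccl4 went up in some mice and down in others. Ccl5 (RANTES), which T and NK cells, among others, secrete, measured 2.54, 3.12, 2.8 and 4.86 in primary tumours 1 to 4 and 15.8, 9.07, 14.2 and 3.53 in the lung metastases. Metastases 1, 2 and 3 lay above every primary tumour, and metastasis 4 lay below primary tumour 4, so the groups overlapped. The means were 10.6 ± 5.54 in metastases and 3.33 ± 1.05 in primary tumours (SD, n = 4 each), a ratio of 3.2, and the log2 difference was 1.29 with a standard error of 0.419 and an interval of 0.36 to 2.22 (limma adjusted p = 0.0883). The metastasis was the higher library in 3 of 4 mice. Over the 16 alternative settings the adjusted p ran from 0.00737 to 0.229: it was 0.012 without lung metastasis 4 (log2 difference 1.69), 0.0205 with array weights and 0.00737 with DESeq2, and above 0.05 in the other 13.

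T and NK cell transcripts moved in part with Ccl5. The summed level of 12 T and NK cell markers was 19.6, 28.9, 6.91 and 25.7 in primary tumours 1 to 4 and 83.5, 36, 60.2 and 28 in the metastases. Metastases 1 and 3, the libraries with most Ccl5, had the 2 highest sums, and metastasis 4, with least Ccl5 of the metastases, had the lowest sum of them. This was not particular to T and NK cells. Summed lung epithelium markers were 19105, 9737, 34166 and 7438 in metastases 1 to 4, and endothelial markers 1089, 840, 2676 and 602. Not every list did so: the neutrophil sum was lowest in metastasis 2, at 7774. Of the 10 T and NK cell markers tested, 2 rose in metastases and 0 fell, against 7.18% and 1.96% of all genes. Cd3d, a subunit of the T cell receptor complex and 1 of the 2, averaged 11.3 ± 5.36 in metastases and 2.2 ± 0.929 in primary tumours, while Cd3e averaged 2.74 ± 1.83 and 1.1 ± 1.27 and was not called. The part of T and NK cells in the Ccl5 values was not tested. In bulk tissue more cells of a type and more RNA per cell cannot be told apart.

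Ccl3 (MIP-1 alpha), a product of activated macrophages, measured 1.27, 23, 2.39 and 3.1 in primary tumours 1 to 4 and 5.18, 4.73, 3.04 and 15.3 in the metastases. Primary tumour 2 stood above all other 7 libraries, while primary tumour 1 was lowest. The estimate was 0.41 on the log2 scale, with an interval of -1.14 to 1.95 (limma adjusted p = 0.763). Without lung metastasis 4 it was -0.0039, and edgeR gave -0.06, so its sign was not stable.

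Ccl4 (MIP-1 beta), encoded beside Ccl3, measured 4.93, 17.4, 2.43 and 7.64 in primary tumours 1 to 4 and 12.3, 5.16, 1.35 and 9.96 in the metastases. Primary tumour 2 was highest here too, and metastasis 3 was lowest. The log2 difference of -0.15 had an interval of -1.52 to 1.22 (limma adjusted p = 0.907), and became 0.28 without primary tumour 2, 0.36 without lung metastasis 3 and 0.40 with array weights. The ratio of Ccl3 to Ccl4 within a library ranged from 0.258 to 2.25, an 8.72-fold span.

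Ccl6 and Ccl9, CCR1 ligands made by myeloid cells of the mouse, were the CC chemokines with the least spread between the libraries of a group. Ccl6 measured 321, 733, 662 and 269 in primary tumours 1 to 4 and 322, 497, 426 and 415 in the metastases. The metastases sat inside the range of the primary tumours. The log2 difference was -0.14 with an interval of -0.87 to 0.59 (limma adjusted p = 0.831), and it was 0.09 without primary tumour 2 and 0.04 without primary tumour 3. Ccl9 measured 163, 218, 287 and 130 in primary tumours 1 to 4 and 118, 201, 110 and 174 in the metastases. Primary tumour 3 was highest and metastasis 3 of the same mouse lowest. Its log2 difference of -0.38 had an interval of -1.0 to 0.23 (limma adjusted p = 0.448), and the metastasis was higher in 1 of 4 mice. Ccl6 was 1.97 to 3.86 times Ccl9 in every library, and since the values are not per length this ratio is read across libraries and not as an order of the 2 genes.

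Ccl17 (TARC) and Ccl22 (MDC), neighbours on chromosome 8 that bind CCR4 and are typical products of dendritic cells and alternatively activated macrophages, had estimates of opposite sign, neither called. Ccl17 measured 9.85, 1.26, 3.34 and 5.57 in primary tumours 1 to 4 and 9.13, 8.15, 5.34 and 9.87 in the metastases. Primary tumours 1 and 4 lay within the range of the metastases, and primary tumours 2 and 3 lay below it. Its estimate was 0.80 on the log2 scale, with an interval of -0.20 to 1.80 (limma adjusted p = 0.323), higher in 3 of 4 mice. Ccl22 measured 11.4, 2.45, 10.4 and 6.87 in primary tumours 1 to 4 and 6.13, 3.2, 8.65 and 0.378 in the metastases. Among all 8 libraries, metastasis 4 (9.87) and primary tumour 1 (9.85) were level as the highest for Ccl17. Metastasis 4 was lowest for Ccl22, where its value rests on 9 reads, and primary tumour 1 was highest for Ccl22. The log2 difference of Ccl22 was -0.82 with an interval of -2.18 to 0.54 (limma adjusted p = 0.463). Accordingly the ratio of Ccl17 to Ccl22 ran from 0.32 to 0.867 in primary tumours and from 0.617 to 26.1 in metastases, ranges that overlap.

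The promoters of this pair are shown because the genes are neighbours with shared receptor use whose values parted in single libraries. They are the 250 bases before the annotated start, 5′ to 3′ on the plus strand, from RefSeq (GRCm38.p6), for Ccl17 at chr8:94810203-94810452 and for Ccl22 at chr8:94745434-94745683, with a match to TTCNNNNGAA, a spacing bound by STAT6, in capitals.
Ccl17: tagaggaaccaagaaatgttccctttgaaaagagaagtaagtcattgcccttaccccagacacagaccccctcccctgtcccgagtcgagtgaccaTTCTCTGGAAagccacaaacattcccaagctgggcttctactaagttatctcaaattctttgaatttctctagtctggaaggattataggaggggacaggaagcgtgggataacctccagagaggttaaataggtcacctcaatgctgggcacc
Ccl22: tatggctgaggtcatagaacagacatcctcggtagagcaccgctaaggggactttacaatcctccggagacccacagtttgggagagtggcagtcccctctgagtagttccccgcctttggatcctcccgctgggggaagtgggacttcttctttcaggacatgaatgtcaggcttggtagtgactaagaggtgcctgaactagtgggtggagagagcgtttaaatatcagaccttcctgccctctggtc
Ccl17 held 1 match to TTCNNNNGAA, 154 bases before the start, and Ccl22 held 0 in this window. Of 32851 promoters of the same length, 5.85% held a match on either strand. The RefSeq table held 6 of the 10 promoters, those of Ccl3, Ccl6, Ccl8, Ccl9, Ccl17 and Ccl22. Searched on both strands for the NF-kappaB consensus, which 7.25% of all promoters held, these 6 gave 1 match, in Ccl9, 35 bases before its start. A match is a run of letters and was not tested as a binding site.

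**Figure D2:**
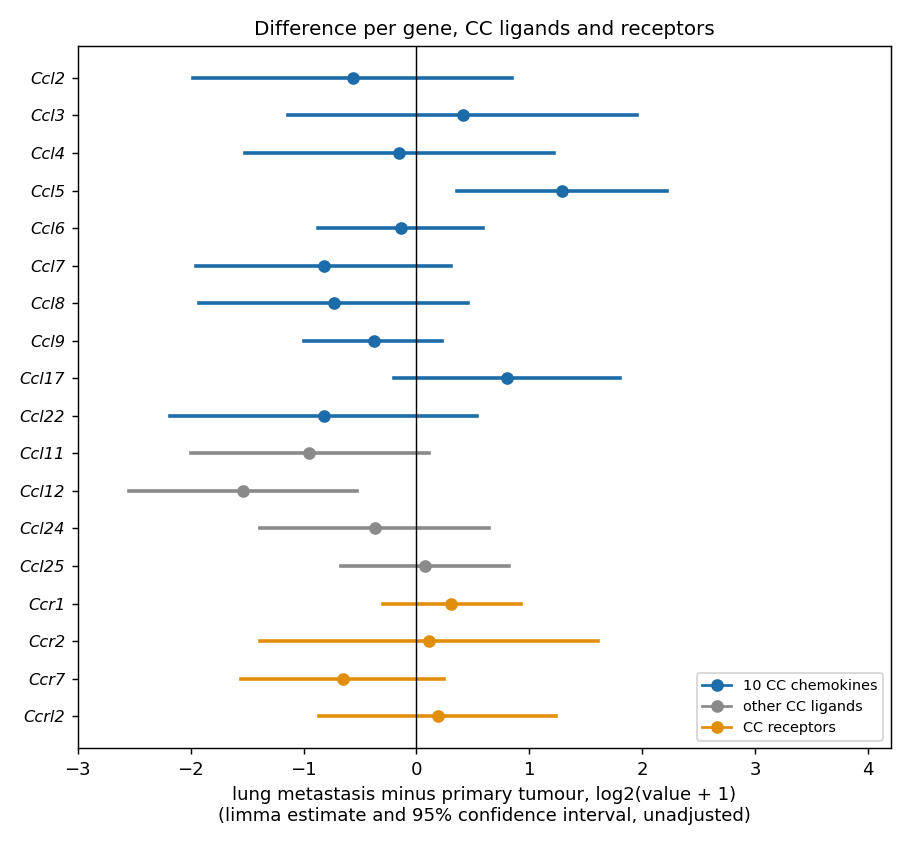
Log2 difference of lung metastasis against primary tumour on log2(value + 1) for the 10 CC chemokines, 4 other CC ligands and 4 CC receptors, as limma estimates (points) with 95% intervals (lines). Of the 10, the interval of Ccl5 alone, 0.36 to 2.22, leaves out 0, as does that of Ccl12, -2.55 to -0.53, among the other ligands.

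The other CC ligands gave the same count of 0 called. Of 14 further ligands listed, 4 were in the table and tested, with a median log2 difference of -0.66, and the 10 others were not analysed here. Ccl12, a CCR2 ligand of the mouse that was singled out after its values were seen, measured 87.7, 51.8, 44.9 and 101 in primary tumours 1 to 4 and 22, 59.6, 11 and 17.4 in the metastases. It was lower in the metastasis in 3 of 4 mice, with mouse 2 as the exception. Its log2 difference was -1.54 with a standard error of 0.455 (limma adjusted p = 0.0632), and the adjusted p over 16 alternatives ran from 0.0141, without lung metastasis 2, to 0.19, with 0.0493 under array weights and 0.0435 with DESeq2. The eosinophil attractants Ccl11 (2.28 ± 1.86 in metastases, 5.16 ± 2.54 in primary tumours, limma adjusted p = 0.265) and Ccl24 (15.9 ± 7.52 and 21.8 ± 14.7, limma adjusted p = 0.662) were not called, nor was Ccl25, a ligand of CCR9 (4.95 ± 0.347 and 5.06 ± 2.81, limma adjusted p = 0.915). Ccl12 did not keep a fixed proportion to Ccl2: their ratio within libraries spanned 8.22-fold.

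Of 11 CC receptors listed, 8 were in the table, 4 passed the filter and 0 were called. Ccr2, which binds Ccl2, Ccl7 and Ccl12, measured 299, 25.7, 341 and 202 in primary tumours 1 to 4 and 184, 223, 152 and 118 in the metastases. Primary tumour 2, highest for Ccl2, Ccl3, Ccl4, Ccl6 and Ccl7, was lowest for Ccr2. Its log2 difference was 0.11 with an interval of -1.39 to 1.61 (limma adjusted p = 0.941), and it was -0.73 without primary tumour 2 and -0.03 without lung metastasis 2. Ccr1, on neutrophils and monocytes, averaged 167 ± 78 in metastases and 127 ± 22.8 in primary tumours (limma adjusted p = 0.533). Metastasis 3, at 283, was the highest library for Ccr1.

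Some lymphocyte and eosinophil receptors were near the detection limit. Ccr7, the lymph node homing receptor, was tested and not called, at 6.12 ± 0.549 in primary tumours and 4.17 ± 3.27 in metastases (limma adjusted p = 0.366). Ccr4, the receptor of Ccl17 and Ccl22, measured 0.517, 0.276, 0.539 and 0 in primary tumours 1 to 4 and 2.61, 0.569, 1.69 and 1.01 in the metastases, 36 reads in all against 131. The groups did not overlap and the metastasis was higher in 4 of 4 mice, but the gene did not reach the filter and was not tested. Groups free of overlap on the higher side were found in 10.4% of the genes tested. Ccr3, the eosinophil receptor, averaged 0.959 ± 1.31 in metastases and 0.817 ± 0.572 in primary tumours and was not tested either. Ccr8 was not analysed here.

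Transcripts of 4 proteins that remove or cut chemokines, and of 1 signalling inhibitor, rose in the metastases. Over the 5 lists of the pathway (other ligands, receptors, atypical receptors, inducers and signalling, trimming enzymes), 38 of 54 genes were in the table and 32 were tested. Of these 5 rose and 0 fell, a share to be read against 7.18% and 1.96% of all genes. The 5 were Ccbp2, Dpp4, Mmp9, Ctsg and Nfkbia, each higher in the metastasis in 4 of 4 mice with no overlap between groups. Ccbp2 was below 1 in every primary tumour and passed the filter only because all 4 metastases reached 1. Its direction and lack of overlap were therefore fixed by the filter.

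Ccbp2, the older symbol of Ackr2, encodes an atypical receptor that internalises and degrades inflammatory CC chemokines without signalling for migration. It measured 0.318, 0, 0.0337 and 0.0704 in primary tumours 1 to 4, 11 reads in all, and 9.88, 10, 51.5 and 2.06 in the metastases. Metastasis 3 was far above the other 3. The log2 difference was 3.42 with a standard error of 0.688 (limma adjusted p = 0.0112), and with a pseudocount of 5 it was 1.76 (adjusted p = 0.0585). The 2 other atypical receptors in the table did not pass the filter.

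Among 6 enzymes that trim or cleave chemokines, all tested, 3 rose, against 7.18% of all genes called higher. Dpp4 (CD26), which removes the first residues of Ccl5 and Ccl22, measured 0.914, 0, 0.978 and 1.73 in primary tumours 1 to 4 and 18, 34, 53.1 and 17.9 in the metastases. Every metastasis was above every primary tumour, with metastasis 3 highest. The means were 30.8 ± 16.7 and 0.904 ± 0.707 (SD, n = 4 each), a log2 difference of 4.00 with a standard error of 0.43 (limma adjusted p = 0.000374), and it was called under all 16 alternatives. Mmp9, a gelatinase that neutrophils store, averaged 338 ± 316 in metastases and 63.9 ± 27.7 in primary tumours (log2 difference 2.07, limma adjusted p = 0.0384), with 799 in metastasis 3. Ctsg, the neutrophil granule protease cathepsin G, averaged 13 ± 10.2 and 1.49 ± 1.23 (log2 difference 2.39, limma adjusted p = 0.0222). The calls of Mmp9 and Ctsg were lost without single libraries: that of Mmp9 without primary tumour 1, 3 or 4 or lung metastasis 1 or 2 (adjusted p 0.0554 to 0.117), that of Ctsg without primary tumour 3 or 4 or lung metastasis 1 or 2 (0.0624 to 0.076). With mouse as a block the adjusted p of Mmp9 was 0.0625, and that of Ctsg was 0.0579 with a pseudocount of 0.1 and 0.104 with edgeR.

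Of 17 tested genes that induce CC chemokines or carry their signals, 1 rose, a share near the 7.18% of all genes called higher. Nfkbia, the inhibitor of NF-kappaB that NF-kappaB itself induces, measured 130, 182, 120 and 131 in primary tumours 1 to 4 and 217, 211, 274 and 270 in the metastases. All 4 metastases were above the highest primary tumour. The log2 difference was 0.79 with a standard error of 0.182 (limma adjusted p = 0.0211). The limma adjusted p was 0.06 with mouse as a block, and 0.0571 to 0.0827 without primary tumour 1, 3 or 4 or lung metastasis 1. The other 16, among them the NF-kappaB subunits Nfkb1 (limma adjusted p = 0.81) and Rela (0.955) and the interleukin-4 effector Stat6 (0.997), were not called.

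**Figure D3:**
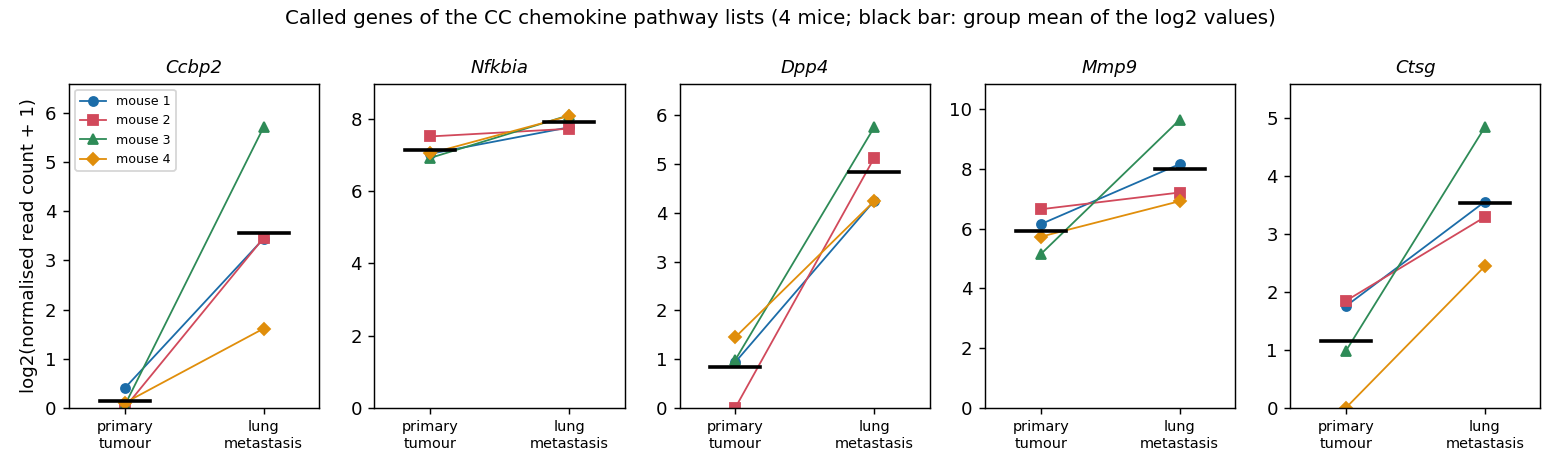
Normalised read counts on a log2(value + 1) axis of the 5 pathway genes called between lung metastasis and primary tumour, with 1 point a library, a line for each mouse and a black bar at each group mean. In each of Ccbp2, Dpp4, Mmp9, Ctsg and Nfkbia the 4 metastases lie above the 4 primary tumours, which the filter fixed in advance for Ccbp2.

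Host cell transcripts moved with these groups. The counts of called markers given for each cell list are to be read against 7.18% of all genes called higher and 1.96% lower. Lung epithelium markers rose in 10 of 10 genes tested, from a summed level of 12.3 to 28.9 in primary tumours to 7438 to 34166 in metastases, with 5034 ± 2233 for Sftpc and 525 ± 510 for Sftpb, surfactant genes at 1.41 ± 0.432 and 0.14 ± 0.027 in primary tumours. Sftpb, Sftpa1, Sftpd, Lamp3 and Nkx2-1 were below 1 in every primary tumour and passed the filter only because every metastasis reached 1. The direction and lack of overlap of these genes were therefore fixed by the filter. Neutrophil markers rose in 11 of 12, from 220 to 1254 up to 7774 to 30477, with Ly6g at 51.9 ± 44.8 against 0.448 ± 0.597 and Camp at 349 ± 235 against 5.06 ± 3.85. The genes listed as carcinoma epithelium markers were present in both tissues, at 1429 to 2706 in primary tumours and 821 to 3092 in metastases. Of these 10, 1 was lower, Cldn4, and 2 were higher, Krt19 and Elf5. Krt19 is also on the mesothelial list, and the direction of Elf5 was fixed by the filter, as for Sftpb. How much of these sums came from lung epithelium was not tested, so they do not measure carcinoma content. Krt8 and Krt18, keratins of simple epithelium, were the largest parts of each sum and were not called. Lung metastasis 3 had the highest sums of lung epithelium and neutrophil markers and the lowest of carcinoma and macrophage markers, and it was also the lowest metastasis for 7 of the 10 CC chemokines and the highest for Ccbp2, Dpp4, Mmp9 and Ctsg. The part of these cells in the results was not tested.

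Macrophages are among the cells that can secrete CC chemokines in tumours. Summed macrophage markers were 6305, 3083, 7454 and 6630 in primary tumours 1 to 4. In the metastases they were 2483, 3281, 1240 and 2292. Apoe was the largest part of every sum, at 3270, 1672, 4279 and 3674 in primary tumours 1 to 4. Its values in the metastases were 965, 1329, 458 and 856. The part of macrophages in the chemokine values was not tested. Of 12 macrophage markers tested, 2 fell, Trem2 and Apoe, and 0 rose, against 1.96% and 7.18% of all genes. All 12 estimates were negative. Csf1r, the receptor of the macrophage growth factor, averaged 176 ± 53.1 in metastases and 275 ± 99.3 in primary tumours, and Emr1 49.8 ± 17.4 and 63.2 ± 19.2, neither called. Monocyte markers rose in 6 of 10 and fell in 1, with a summed level of 759 to 1023 in primary tumours and 758 to 2168 in metastases; Ly6c2 averaged 12.6 ± 8.14 against 1.2 ± 0.838 and Ly6c1, which endothelium also carries, 190 ± 176 against 7 ± 6.11. Alveolar macrophage markers rose in 4 of 8 and fell in 1: Siglec5, which eosinophils also carry, averaged 8.58 ± 6.68 against 1.04 ± 0.267, and Fabp4, which adipocytes also express, 7.64 ± 4.99 against 78.3 ± 56.6 (limma adjusted p = 0.0132, and 0.0517 without lung metastasis 2). Ear1, another of the 4 that rose, was below 1 in every primary tumour, so the filter fixed its direction. Dendritic cell markers rose in 3 of 9, of which Xcr1 was below 1 in every primary tumour, so the filter fixed its direction. The mean of the log2 values of the dendritic cell markers was 3.16 to 3.67 in metastases and 2.11 to 2.67 in primary tumours. Their summed level, 246 to 349 in metastases and 311 to 429 in primary tumours, was mostly Fscn1, an actin-bundling protein not particular to these cells, which averaged 203 ± 68.3 in metastases and 336 ± 46.7 in primary tumours and was not called. Flt3 (3.49 ± 2.12 against 1.27 ± 0.636) and Zbtb46 (19 ± 12.2 against 11.8 ± 2.59) were not among the 3.

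The remaining lists described stroma and rarer leukocytes, with counts to be read against the same 7.18% of all genes higher and 1.96% lower. Eosinophil and mast cell markers rose in 3 of 6, Prg2 to 10.1 ± 2.9 from 0.571 ± 0.865 and Ear6 to 3.05 ± 1.5 from 0.183 ± 0.283. Ear6 was below 1 in every primary tumour, so the filter fixed its direction. Endothelial markers rose in 5 of 10, with Pecam1 (180 ± 143 against 91.4 ± 73.3) and Cdh5 (149 ± 115 against 76.9 ± 59.2) not called. Fibroblast markers rose in 1 of 10 and fell in 3, and Col1a1 (279 ± 66.9 against 426 ± 180) and Col1a2 (403 ± 114 against 416 ± 190) were not called. Mesothelial markers rose in 8 of 8, among them Msln (231 ± 89.5 against 95 ± 38.3) and Upk3b (61.7 ± 48.5 against 0.00986 ± 0.0197). Upk3b, Wt1, Lrrn4, Nkain4, Rspo1 and Upk1b were below 1 in every primary tumour and passed the filter only because every metastasis reached 1. The direction and lack of overlap of these genes were therefore fixed by the filter. The limma call of Msln was lost without primary tumour 1, 2 or 4 or lung metastasis 2 or 4 (adjusted p 0.0826 to 0.134) and with mouse as a block (0.0854), and that of Ear6 without primary tumour 4 (0.0602). With edgeR neither Prg2 (adjusted p = 0.0719) nor Ear6 (0.0757) was called. Flt3 passed without lung metastasis 4 (limma adjusted p = 0.0478) and Col1a1 without primary tumour 2 (0.0422).

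The CC chemokines varied more between the libraries of a group than most genes did. The within-group SD on the log2 scale was 1.23 for Ccl3, 1.17 for Ccl2, 1.07 for Ccl4 and 1.06 for Ccl22, above that of 99%, 98.6%, 97.6% and 97.4% of genes tested, whose median was 0.40. Ccl8 (0.96), Ccl7 (0.91), Ccl17 (0.72) and Ccl5 (0.65) exceeded 95.7%, 94.6%, 86.1% and 81% of genes. Ccl6 (0.55) and Ccl9 (0.46) were nearer the middle, above 70.9% and 58.6%. Low genes have more counting error, and the recovered reads of Ccl22 ran from 9 to 309 a library.

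A few libraries held many of the extremes. Primary tumour 2 was the highest primary tumour for Ccl2, Ccl3, Ccl4, Ccl6 and Ccl7 and the lowest for Ccl17 and Ccl22. Among metastases, number 3 was lowest for Ccl2, Ccl3, Ccl4, Ccl7, Ccl8, Ccl9 and Ccl17 and highest for Ccl22, while number 2 was highest for Ccl2, Ccl6, Ccl7 and Ccl9. Primary tumour 2 also had the lowest macrophage sum among primary tumours (3083) and the highest neutrophil sum (1254). Its endothelial sum was 886, against 201 to 340 in the other 3 primary tumours, its fibroblast sum 874 against 2405 to 2656 and its carcinoma epithelium sum 1429 against 2190 to 2706. The part of those cells in its chemokine values was not tested.

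**Figure D4:**
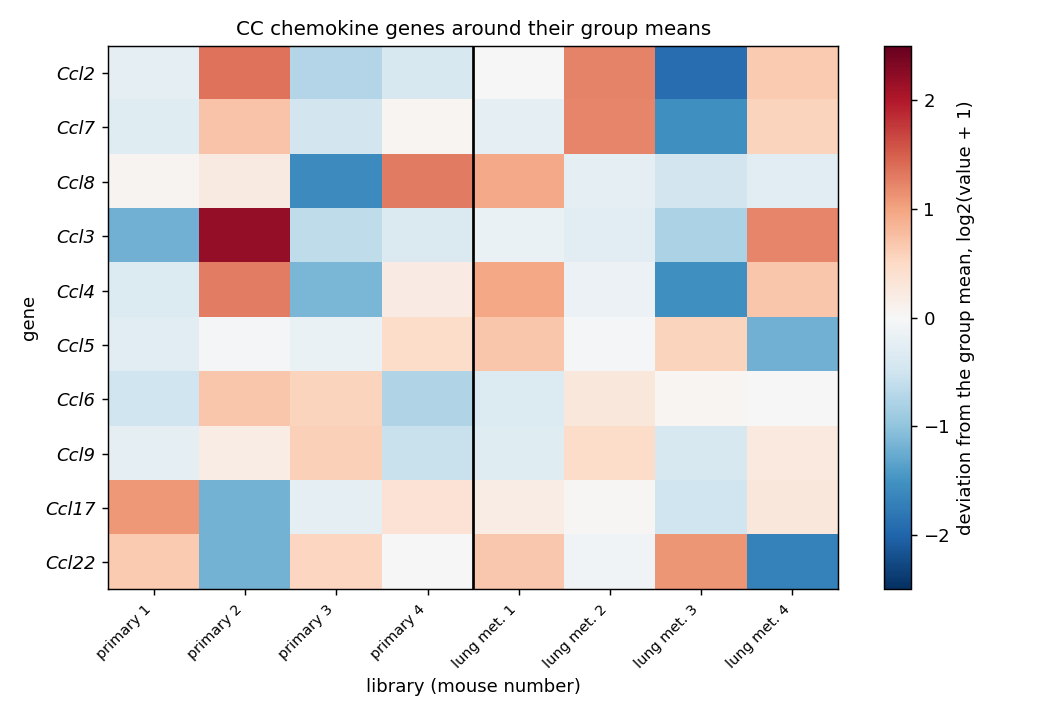
Deviation of each CC chemokine from the mean of its group in each of the 8 libraries, as a colour on the log2(value + 1) scale. Primary tumour 2 lies above its group for Ccl2, Ccl3, Ccl4, Ccl6 and Ccl7, and lung metastasis 3 lies lowest of the metastases for 7 of 10 genes.

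Likeness of pattern was measured as the mean absolute difference of log2 values centred on each gene's mean, over the 8 libraries, with all 14002 other genes tested ranked for each chemokine. By this measure Ccl7 was the gene nearest to Ccl2 (0.32), and Ccl2 ranked 15 for Ccl7. Their ratio stayed between 0.856 and 1.86. At a distance of 0.26, Ccl9 ranked 27 for Ccl6 and Ccl6 ranked 220 for Ccl9. Ccl3 and Ccl4 lay 0.71 apart, with Ccl4 at rank 249 for Ccl3 and Ccl3 at rank 2925 for Ccl4. Ccl17 and Ccl22 were among the less alike, 1.01 apart, with Ccl22 at rank 12674 for Ccl17 and Ccl17 at rank 10446 for Ccl22. Outside the family, the 3 nearest genes were Dio2 (0.34), Gdf11 (0.36) and Rapsn (0.37) for Ccl2, and Slc25a43 (0.27), Snhg4 (0.27) and 8430429K09Rik (0.28) for Ccl7. Those of Ccl8 were Gm4951 (0.27), Gbp8 (0.28) and Cabp4 (0.35).

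For Ccl3 the nearest were Mettl7b (0.18), Cxcr7 (0.29) and 1300002K09Rik (0.43), and for Ccl4 they were Car12 (0.25), Bdkrb1 (0.31) and 1300002K09Rik (0.32), so 1 gene stood in both sets. Ccl5 was nearest to Homer2 (0.19), Il27ra (0.22) and Gimap3 (0.22). Zmat3, Plekha3 and Txndc11 lay at 0.22 each from Ccl6, and Syde2 (0.15), Rin1 (0.16) and Cand2 (0.16) were nearest to Ccl9. Ccl17 was nearest to Pyhin1 (0.20), Kmo (0.22) and Naaa (0.24), and Ccl22 to Lef1 (0.18), Lyl1 (0.34) and D10Bwg1379e (0.36). With 8 libraries and 14002 candidates these are descriptions of likeness in these libraries.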

How the data were processed

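RNA of bulk tissue from 8 BC libraries was analysed; per the labels, RNeasy kits gave the RNA and TruSeq kits the libraries. Per the submitters' processing notes the build was mm9. The sources used here name no aligner, counter, annotation or strand setting. The authors deposited 1 table of signal values, reads scaled by library and multiplied to a level near 1000000. The column sums differ, so these are not the CPM its name gives, as the design had assumed. Divided by what 1 read was worth, 100% of values came out whole (tolerance 0.05 reads), which recovered depths of 15447918 to 28995834 reads (1 read being worth 0.0337 to 0.0676), with lung metastasis 3 the shallowest. Reads carry no molecular identifiers, so precision from depth covers counting error only.

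The 4 primary tumours and 4 lung metastases were compared in limma 3.58.1 (R 4.3.3) with an intensity trend on log2(value + 1), group means only, over 14003 genes that reached 1 in 4 or more libraries. Adjusted p-values are Benjamini-Hochberg over all of these and called under 0.05. The code was tested on simulated data. Alternatives, all chosen at the start, were pseudocounts of 0.1 and 5, no filter, median-ratio scaling, mouse as a replicate block, array weights, edgeR 4.0.16, DESeq2 1.42.0 and leaving out each library. Titles and the design text make same-numbered libraries the same mouse. The correlations of their deviations from the group means were 0.096, -0.15, 0.035 and 0.0066 for mice 1 to 4.

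Members and lists were chosen with earlier results of these data known. Named with values are the members, every called gene of the 5 pathway lists, receptors of the members (1 gene and 1 sequence are not reported here), the first 2 tested genes of each cell list and the 3 genes nearest to each member. Genes named outside this rule, such as Ccl12, were chosen after their values were seen. PDAC columns were left out.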

Additional observations from a re-analysis of the deposited data

Results flagged for a closer look

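A library was singled out where its gap to the nearest of its group, divided by the range of the group of 4, exceeded Dixon's 95% critical value. The 44 named genes gave 88 groups, of which 10 were singled out, 3 of them among the 20 groups of CC chemokines. Chance gives about 1 in 20 groups only where values are normally distributed. The values used were not on the log2 scale and some were 0, so the share due to chance is not known here. Ccl2 in primary tumour 2 was 181, with 59.3 as the nearest other. Ccl3 in the same library was 23 against 3.1. Ccl8 in lung metastasis 1 was 45.9 against 19.8. Lung metastasis 3 stood apart for Ccr1 (283 against 143), Ccbp2 (51.5 against 10), Ly6c1 (454 against 108), Ly6g (119 against 36) and Zbtb46 (37.2 against 15.5). Camp in primary tumour 1 was 10.8 against 3.59. Upk3b in primary tumour 2 was 0.0394 and is listed at 0 in the other 3 primary tumours.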

How the results depend on the processing

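Of the 10 CC chemokines, Ccl5, Ccl7, Ccl8, Ccl9, Ccl17 and Ccl22 kept their sign under all 16 alternatives, and none was called lower under any. The count called higher was 1 (Ccl5) with array weights (log2 difference 1.35), with DESeq2 (1.72) and without lung metastasis 4 (1.69), so it ran from 0 to 1 over the leave-one-out fits, in which Ccl5 ran from 1.06 to 1.69. Signs turned for Ccl2 with array weights (0.12; leave-one-out -0.98 to 0.07), Ccl3 with edgeR (-0.06; leave-one-out -0.0039 to 1.14; no adjusted p was given by DESeq2), Ccl4 with array weights (0.40; leave-one-out -0.53 to 0.36) and Ccl6 (leave-one-out -0.39 to 0.09). Ccr2 was -0.03 with array weights, -0.34 with edgeR and -0.32 with DESeq2 (leave-one-out -0.73 to 0.50), and Col1a2 -0.03 with edgeR and -0.01 with DESeq2 (leave-one-out -0.38 to 0.29). Pathway genes called higher numbered 3 with mouse as a replicate block and 1 to 6 over the leave-one-out fits, fewest without lung metastasis 1; Ccbp2 did not reach the filter without any 1 metastasis. Pathway genes called lower numbered 1 (Ccl12) with array weights and with DESeq2, and 0 to 1 over the leave-one-out fits. Over all genes, 1536 were called higher with array weights (453 to 877 leave-one-out), and 747 lower with array weights, 517 with DESeq2, 176 with the replicate block and 77 to 370 leave-one-out; in all 2283 were called with array weights and 1985 with DESeq2 against 1279. Among named genes the block changed the calls of Nfkbia, Mmp9 and Msln (0.0854) and no other. The cause of these differences was not tested. Array weights were least for lung metastasis 3 (0.154). Depth limits Ccl22, Ccr4 and the low values of Ccbp2.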
